A study of Rattus norvegicus with 132 samples.

Results

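Fractionated abdominal irradiation reaches colon and jejunum together, and the question taken up here is which genes answered it differently in the epithelium of the 2 tissues on day 4. The measure is an interaction: the log2 change of irradiated against non-irradiated jejunum minus the same change in colon. A positive value means a higher jejunal than colonic change, and it can arise from a rise in jejunum, a fall in colon, or both, so each gene is also given with its change in either tissue. The comparison uses 24 of the 132 libraries of the series, found by their sample titles, 6 in each of 4 groups of Sprague Dawley rats. The non-irradiated groups are colon epithelium and jejunum epithelium of rats that received neither radiation nor treatment. The irradiated groups are the same tissues of rats given 5 fractions of 4 Gy to the abdomen from day 0 to day 4 and no drug, with tissue labelled day 4. The sample descriptions call this day 4 after irradiation, and the interval between the last fraction and sampling is not stated. The labels call the 6 libraries of a group biological replicates but name no rats, so whether a colon and a jejunum library came from the same rat is not known, and p-values measure the spread between these libraries. The labels used here give no age.

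The epithelium of the small intestine and of the colon is renewed from stem cells at the base of crypts. The jejunum carries villi lined by enterocytes that digest and absorb sugars, peptides and fat, while the colon has a flat surface of colonocytes that absorb salt and water, and many mucus-secreting goblet cells. DNA damage in crypt cells stabilises the transcription factor p53, whose targets arrest the cycle, start repair or trigger death. The surviving epithelium then passes through a regenerative state, in which genes of fetal and wounded epithelium are switched on before mature cells return. Because bulk tissue was sequenced, fewer cells of a type and less RNA per cell cannot be told apart in any of the values below.

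The 24 libraries held 17.73 to 19.74 M counts (median 19.1 M). Levels are CPM, counts scaled to a common library size by edgeR's TMM factors, and a gene is called changed where the Benjamini-Hochberg adjusted p of the edgeR quasi-likelihood test over 13741 genes is under 0.05. The tissue labels matched the markers: 9 jejunum markers summed to 49600 to 60830 CPM in non-irradiated jejunum and to 13.8 to 565.6 CPM in non-irradiated colon, and 10 colon markers to 18720 to 22880 CPM in colon and 386.5 to 537.1 CPM in jejunum. The first digit of the library names gives 2 library series, 3 libraries of each in every group. Non-irradiated jejunum differed between these series in 2930 genes (21.3% of those tested), non-irradiated colon in 3 (0.0218%). The share of mitochondrially encoded counts in non-irradiated jejunum was 5.82% to 7.25% in series 1 and 12.5% to 20.9% in series 2. In irradiated jejunum, replicate 1 had the highest such share (23.5%), and in replicate 2 Apoa1 had the highest count of any gene. Of the 97 genes named here with a called interaction, 40 were called in each series alone, 45 in 1 of the series and 12 in neither, and values by series are given for some of them. A test of the difference between series was called for 3 of the named genes, Acot1, Psme3 and Lck.

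The responses of the tissues differed in 2994 of 13741 genes, 21.8% of those tested. The jejunal change was the higher one in 1865 genes (13.6%) and the lower one in 1129 (8.22%). Irradiation changed 6442 genes in jejunum (46.9%), 3771 of them upward (27.4%) and 2671 downward (19.4%), and 5156 genes in colon (37.5%), 2496 upward (18.2%) and 2660 downward (19.4%). Of the 1865 genes with the higher jejunal change, 988 rose in jejunum and were not called in colon, 492 fell in colon and were not called in jejunum, 190 rose in jejunum and fell in colon, 121 rose in both tissues and 18 fell in both. Of the 1129 with the lower jejunal change, 511 fell in jejunum and were not called in colon, 372 rose in colon and were not called in jejunum, 107 moved in opposite directions, 53 rose in both and 35 fell in both. Genes that moved in the same direction in both tissues were mostly without a called difference: 1133 such genes rose in both and 1030 fell in both. The percentages in this paragraph are the background for the counts of called genes in every list below.

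Fitted with the libraries of series 1 alone, the interaction was called in 1605 of 13764 genes (11.7%), and with series 2 alone in 1990 of 13798 (14.4%). Of the 2994 genes, 2985 were tested in both series, 2875 had the same direction in both and 376 were called in both. The size of the interaction itself differed between the series in 692 genes (5.04%). Without replicates 1 and 2 of irradiated jejunum 2401 genes were called, and without the series 1 libraries of non-irradiated jejunum 2268 were. With series 1 alone, the changes within colon and within jejunum were called in 857 and 3869 genes.

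**Figure D1:**
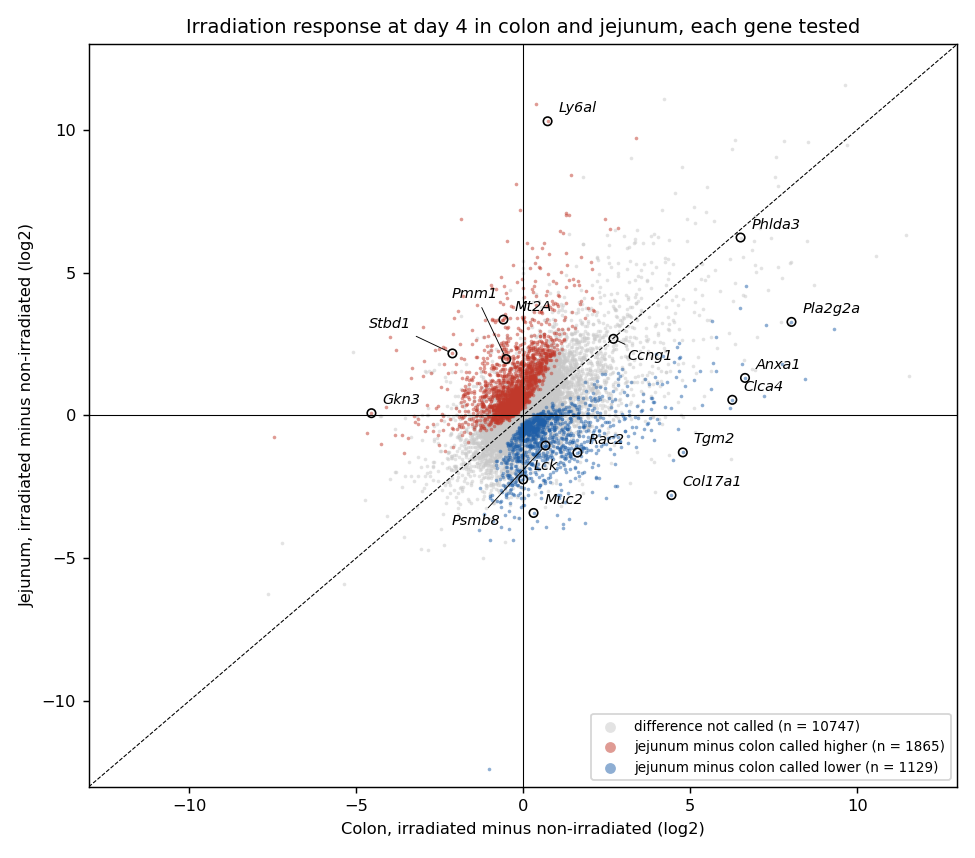
Change after irradiation in colon (x axis, log2) against the change in jejunum (y axis, log2), one point per tested gene. Genes called in the interaction are coloured by direction, 1865 with the higher and 1129 with the lower jejunal change, and the diagonal marks equal change in both tissues.

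**Figure D2:**
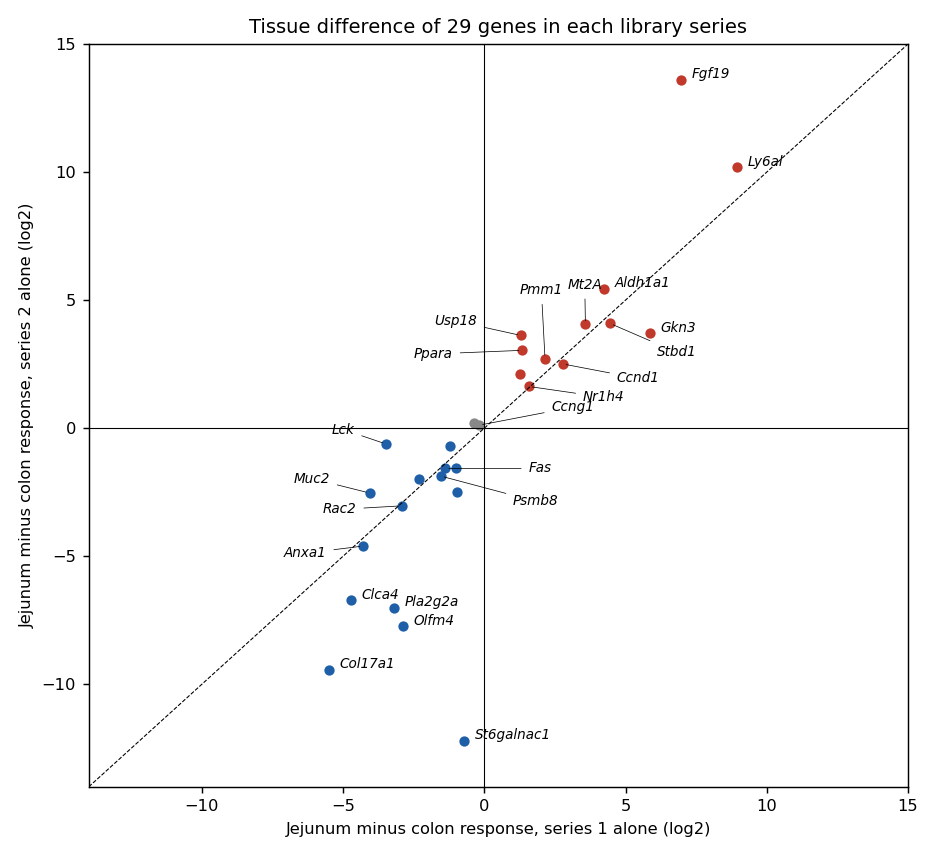
Interaction log2 of the discussed genes fitted with the libraries of series 1 alone (x axis) and of series 2 alone (y axis). The dashed diagonal marks equal values, and the 27 genes with a called interaction (coloured) have the same sign in both series, St6galnac1 and Lck with unlike sizes.

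Most genes of the p53 pathway that arrest the cycle and feed back on p53 rose in each tissue. On that list 7 differed between the tissues, in no common direction. Over both series, 3 members of its cell death arm were called higher in colon and not in jejunum, where their changes varied by library series. Of 21 tested genes for arrest and feedback, 13 rose and 2 fell in colon, and 13 rose and 2 fell in jejunum. The interaction was called higher in 4 and lower in 3 of them, with a median of -0.21 against 0.11 over all genes. Ccng1, which encodes cyclin G1, a p53 target that acts with a phosphatase on Mdm2, ran from 51.4 to 61.7 CPM (median 55.8) in non-irradiated colon and from 330.2 to 438 CPM (median 354) after irradiation. In jejunum the same gene went from 34 to 53.5 CPM (median 46.8) to 169 to 339.6 CPM (median 325). No irradiated library overlapped a control in either tissue, and the log2 changes were 2.703 ± 0.22 (adjusted p = 1.55e-15) in colon and 2.68 ± 0.22 (adjusted p = 4.38e-16) in jejunum. Their difference was -0.02 ± 0.29 (adjusted p = 0.971), smaller than its SE.

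Phlda3, a p53 target that inhibits Akt at the membrane, was nearly absent before irradiation, at 0.264 to 2.06 CPM (median 0.999) in colon and 0.081 to 1.28 CPM (median 0.477) in jejunum. It reached 62.5 to 133 CPM (median 85.4) and 11.46 to 78.5 CPM (median 44.5), log2 changes of 6.51 ± 0.59 and 6.23 ± 0.63, with an interaction of -0.28 ± 0.85 (adjusted p = 0.85). Tigar, a regulator of glycolysis, rose more in jejunum, by 3.04 ± 0.36 (adjusted p = 4.45e-10) against 1.17 ± 0.32 (adjusted p = 0.00294) in colon (interaction 1.87 ± 0.47, adjusted p = 0.00279). The Tigar interaction was 2.53 (adjusted p = 0.019) in series 1 and 1.15 (adjusted p = 0.246) in series 2. Plk2, a stress-induced kinase, rose more in colon, by 4.600 ± 0.50 (adjusted p = 2.88e-11) against 2.39 ± 0.45 (adjusted p = 1.43e-05) (interaction -2.21 ± 0.62, adjusted p = 0.00711). Zmat3, an RNA-binding p53 target, rose 2.09-fold in colon, from 16.2 to 24 CPM (median 18.9) to 37.4 to 46.4 CPM (median 40.4), and stood at 31.7 to 41.4 CPM (median 36.9) and 34.7 to 52.8 CPM (median 40.6) in jejunum (interaction -0.91 ± 0.16, adjusted p = 2.05e-05).

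The death receptor gene Fas was the member with opposite changes. Its level in colon ran from 4.72 to 9.62 CPM (median 7.32) without and from 10.1 to 22.2 CPM (median 13.4) with irradiation, and no irradiated library lay as low as a control. In jejunum, where it started higher, it ran from 17.3 to 36.6 CPM (median 22.6) and then from 13 to 24.3 CPM (median 17.4), with overlapping groups. The changes were 0.97 ± 0.20 (adjusted p = 7.92e-05) in colon and -0.49 ± 0.19 (adjusted p = 0.0329) in jejunum, and the interaction of -1.45 ± 0.28 (adjusted p = 6.77e-05) was -1.38 in series 1 and -1.57 in series 2. The jejunal fall was called in series 2 (-1.04, adjusted p = 0.000755) and not in series 1 (0.094, adjusted p = 0.82), and the jejunal controls ran from 17.3 to 20.6 CPM in series 1 and from 24.5 to 36.6 CPM in series 2. In colon the change was 1.48 in series 1 and 0.53 (adjusted p = 0.0692) in series 2. Bbc3, which encodes the BH3 protein Puma, rose from 13 ± 3.88 CPM (SD, n = 6) to 26.2 ± 4.7 CPM in colon and was 26.3 ± 10.4 CPM and 25.3 ± 3.54 CPM in jejunum (interaction -1.04 ± 0.26, adjusted p = 0.00201). Its jejunal controls ran from 15.7 to 19.5 CPM in series 1 and from 30.9 to 42.2 CPM in series 2. The Bbc3 change in jejunum was 0.48 (adjusted p = 0.143) in series 1 and -0.47 (adjusted p = 0.0467) in series 2. Its interaction was -0.90 (adjusted p = 0.0833) and -1.22 (adjusted p = 0.00239). Apaf1, the scaffold of the apoptosome, rose by 1.28 ± 0.19 (adjusted p = 3.49e-07) in colon and measured 0.29 ± 0.19 (adjusted p = 0.215) in jejunum (interaction -0.996 ± 0.27, adjusted p = 0.00518). By series, Apaf1 measured -0.17 (adjusted p = 0.576) and 0.70 (adjusted p = 0.0305) in jejunum. Fas, Bbc3 and Apaf1 were the called members among 11 tested genes of the list, all lower, against a background of 8.22%. Of the 11 genes, 10 rose in colon and 7 in jejunum. With the series 1 controls of jejunum left out, Apaf1 and Plk2 were no longer called.

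Genes of ribosome production and of cell division rose in larger numbers in jejunum than in colon, and the difference between tissues was called for some ribosome genes and for 1 mitotic gene. Of 17 genes for ribosome biogenesis and Myc, all 17 rose in jejunum and 10 in colon, and 7 were called higher in the interaction (background 13.6%), none lower. The median interaction was 1.07 over the list, 1.58 in series 1 and 0.50 in series 2, and 2 and 0 members were called there. Rrp12, a factor for export of ribosomal subunits, went from 2.21 ± 0.797 CPM to 13.2 ± 10.2 CPM in jejunum and from 7.47 ± 1.04 CPM to 17.23 ± 5 CPM in colon. Its interaction of 1.42 ± 0.45 (adjusted p = 0.0161) was not called without replicate 1 of irradiated jejunum or without the series 1 controls.

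For mitosis, 20 of 22 genes rose in jejunum and 6 in colon, and 1 was called in the interaction. The list's median was 0.86, but 1.88 in series 1 against -0.25 in series 2, so its direction depended on the library series. Mki67, the proliferation antigen, had an interaction of 0.50 ± 0.47 (adjusted p = 0.469) and passed the test in neither tissue. The stem cell receptor gene Lgr5 was low throughout, at 0.746 ± 0.366 CPM in irradiated colon and 1.2 ± 0.737 CPM in irradiated jejunum, and an interaction of -0.15 ± 0.70 (adjusted p = 0.911). Olfm4, a marker of stem and progenitor cells in the small intestine, moved in opposite directions. It ran from 0.263 to 2.23 CPM (median 0.6246) to 0.935 to 28.8 CPM (median 2.36) in colon and from 6.53 to 38.5 CPM (median 11.53) to 0.186 to 13 CPM (median 1.43) in jejunum, with wide overlap in both. Its interaction was -5.23 ± 1.13 (adjusted p = 0.000464), at -2.88 (adjusted p = 0.157) in series 1 and -7.74 (adjusted p = 0.00023) in series 2.

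Most genes of the regenerative program rose in both tissues, and several of them differed in size of change. Of 25 tested genes for regenerative and fetal-like epithelium, 21 rose in colon and 17 in jejunum, none fell in either, and the interaction was called higher in 2 and lower in 5. Ly6al, a rat gene of the Ly6 family of surface proteins, showed the largest jejunal excess of the list. In non-irradiated jejunum it was all but silent, from 0.567 to 1.21 CPM (median 0.686), and after irradiation it ran from 205 to 2223 CPM (median 933). Colon expressed it at a high level before irradiation already, from 2475 to 3663 CPM (median 3190), and from 3914 to 6288 CPM (median 4905) after it. The jejunal change was 10.29 ± 0.66 (adjusted p = 2.16e-20), the colonic one 0.73 ± 0.43 (adjusted p = 0.175) and the interaction 9.56 ± 0.75 (adjusted p = 5.15e-16). Irradiated jejunum thus came to express a gene that normal colon expresses at a higher level, with no overlap between these groups.

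Ccnd1, encoding the G1 cyclin D1, followed the same order. It ran from 3.19 to 12.1 CPM (median 8.04) in control and from 14.8 to 142 CPM (median 72.3) in irradiated jejunum, against from 158 to 199 CPM (median 172) and from 253 to 352 CPM (median 283) in colon. It rose 10.4-fold in jejunum and 1.63-fold in colon, an interaction of 2.67 ± 0.38 (adjusted p = 3.06e-07) that measured 2.77 in series 1 and 2.51 in series 2. Clu, the secreted chaperone clusterin that marks revival stem cells, rose in both, by 5.33 ± 0.90 (adjusted p = 1.77e-06) in jejunum and 2.83 ± 0.74 (adjusted p = 0.00181) in colon, and its interaction of 2.51 ± 1.09 (adjusted p = 0.0895) was not called.

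Anxa1, a calcium-dependent membrane protein of injured epithelium, rose in colon and was not called in jejunum over both series. Colon ran from 0.709 to 2.46 CPM (median 1.14) before and from 25.2 to 662 CPM (median 93.8) after irradiation, with the highest value in a single library. Jejunum ran from 0.263 to 3.73 CPM (median 1.38) and from 1.42 to 10.6 CPM (median 3.96), with overlap. In series 2 alone it rose in jejunum too, by 3.55 (adjusted p = 0.0141), from 0.263 to 0.837 CPM to 3.79 to 10.6 CPM without overlap, while in series 1 the jejunal change was 0.28 (adjusted p = 0.848). The interaction of -5.33 ± 1.13 (adjusted p = 0.000342) was not called when the series 1 controls of jejunum were left out (log2 -3.11, adjusted p = 0.2). Pinlyp, a secreted Ly6-type inhibitor of phospholipase A2, appeared in both tissues. Its jejunal controls held 0 counts in all, so the rise to 19.9 ± 10.7 CPM was at least 535-fold against 3 counts over the group. In colon 2 counts in the controls faced 2417 after irradiation, a ratio of 1130 with a 95% counting interval of 312 to 9310.

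Among 13 EGF family ligands and receptors, 7 rose and 3 fell in colon, 5 rose and 1 fell in jejunum, and 4 were called lower in the interaction. With series 1 alone 1 was called lower and with series 2 alone none. Btc, the ligand betacellulin, rose by 2.68 ± 0.44 (adjusted p = 1.95e-06) in colon and 0.84 ± 0.33 (adjusted p = 0.0316) in jejunum (interaction -1.84 ± 0.55, adjusted p = 0.0109). It lost its call when the series 1 controls of jejunum were left out. The cytokine gene Lif, which signals through gp130, lies outside this family. It rose 2.66-fold in colon, from 5.67 to 8.14 CPM (median 7.49) to 13.9 to 26.3 CPM (median 18.8) with no overlap, and stood at 11.8 to 19.9 CPM (median 13.7) and 11.6 to 19.2 CPM (median 17) in jejunum (interaction -1.26 ± 0.20, adjusted p = 2.01e-06).

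Goblet cell genes fell in jejunum, and few of them changed in colon. Of 17 tested genes on the goblet cell list, 12 fell and 1 rose in jejunum, whereas 2 fell and 1 rose in colon, and the interaction was called lower in 11 and higher in 2 (background 8.22% and 13.6%). The median interaction was -1.71. Muc2, the gel-forming mucin of the intestinal mucus layer, ran from 1914 to 6352 CPM (median 4462) in control and from 1393 to 13232 CPM (median 4862) in irradiated colon. It ran from 543 to 4335 CPM (median 2144) in control and from 113 to 315 CPM (median 202) in irradiated jejunum, where no irradiated library reached a control. Its change was -3.42 ± 0.43 (adjusted p = 1.82e-09) in jejunum and 0.31 ± 0.39 (adjusted p = 0.543) in colon, and the interaction was -3.73 ± 0.57 (adjusted p = 1.13e-06).

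The controls of jejunum differed by series here: Muc2 stood at 3629 to 4335 CPM in series 1 and 543 to 659 CPM in series 2. Within the series the Muc2 interaction was -4.06 and -2.53, called in both. Tff3, the trefoil peptide secreted with mucin, had an interaction of -2.34 ± 0.51 (adjusted p = 0.000471), Fcgbp, a mucus-binding protein, of -2.34 ± 0.53 (adjusted p = 0.000844), and Bcas1 of -3.45 ± 0.56 (adjusted p = 4.53e-06), each from a fall in jejunum alone. When the series 1 controls of jejunum were left out, Tff3 measured -0.49 and Fcgbp -0.61, neither called, and the goblet cell list held 3 lower calls with a median of -0.49. In series 1 alone it held 8 and in series 2 alone 4.

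St6galnac1, a sialyltransferase that decorates mucin sugars, parted the jejunal controls outright. It stood at 0 to 0.147 CPM in the 3 controls of series 1 and 1011 to 1028 CPM in the 3 of series 2, while irradiated jejunum ran from 0 to 0.136 CPM (median 0.0707) in both series. Its pooled interaction of -11.34 (adjusted p = 1.13e-06) therefore rests on series 2, with -12.20 there and -0.71 (adjusted p = 0.864) in series 1. St6gal1, a related enzyme of N-glycans, rose in colon by 4.63 ± 0.95 (adjusted p = 8.9e-05) and measured -0.48 ± 0.84 (adjusted p = 0.662) in jejunum (interaction -5.11 ± 1.25, adjusted p = 0.00181, not called without the series 1 controls).

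Antimicrobial genes of the kind made by Paneth cells, which normal rat colon largely lacks, rose in colon. Of 11 tested genes on the Paneth cell and antimicrobial list, 6 rose in colon and 2 in jejunum, and 3 were called lower in the interaction. Pla2g2a, a secreted phospholipase that kills bacteria, ran from 1.12 to 25.4 CPM (median 2.37) in control and from 287 to 5539 CPM (median 1978) in irradiated colon, without overlap. In jejunum it ran from 5.11 to 28.6 CPM (median 8.04) and from 5.68 to 351 CPM (median 45.9), with overlap. It rose in both, by 8.03 ± 1.09 (adjusted p = 2.29e-08) and 3.27 ± 0.87 (adjusted p = 0.00143), and the interaction was -4.76 ± 1.22 (adjusted p = 0.00309). The interaction was -3.21 (adjusted p = 0.244) in series 1 and -7.01 (adjusted p = 0.000225) in series 2. Mmp7, the protease that activates defensins in mice, went from 0.2 ± 0.154 CPM to 67.6 ± 44 CPM in colon and from 1.03 ± 0.953 CPM to 2.59 ± 3.3 CPM in jejunum (interaction -7.17 ± 1.37, adjusted p = 7.42e-05). Of the lectins Reg3b and Reg3g, both with the higher control mean in jejunum, Reg3b had an interaction of -5.94 ± 1.68 (adjusted p = 0.00723) and Reg3g of -3.86 ± 1.50 (adjusted p = 0.0541), so only the first was called. The Reg3b interaction was -3.45 (adjusted p = 0.24) in series 1 and -7.90 in series 2.

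Hormone genes showed no common direction. Of 20 genes on the enteroendocrine cell list, 2 were called higher and 3 lower, and the median was -1.43 in series 1 and 1.03 in series 2. Pyy, the satiety hormone of L cells, rose in colon by 1.38 ± 0.36 (adjusted p = 0.00185) and fell in jejunum (-1.60 ± 0.47, adjusted p = 0.00361), with an interaction of -2.98 ± 0.59 (adjusted p = 0.000129) that was not called without the series 1 controls. Sct, encoding secretin, rose in colon alone, from 2.72 ± 0.598 CPM to 7.09 ± 3.67 CPM (interaction -1.67 ± 0.34, adjusted p = 0.000248).

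**Figure D3:**
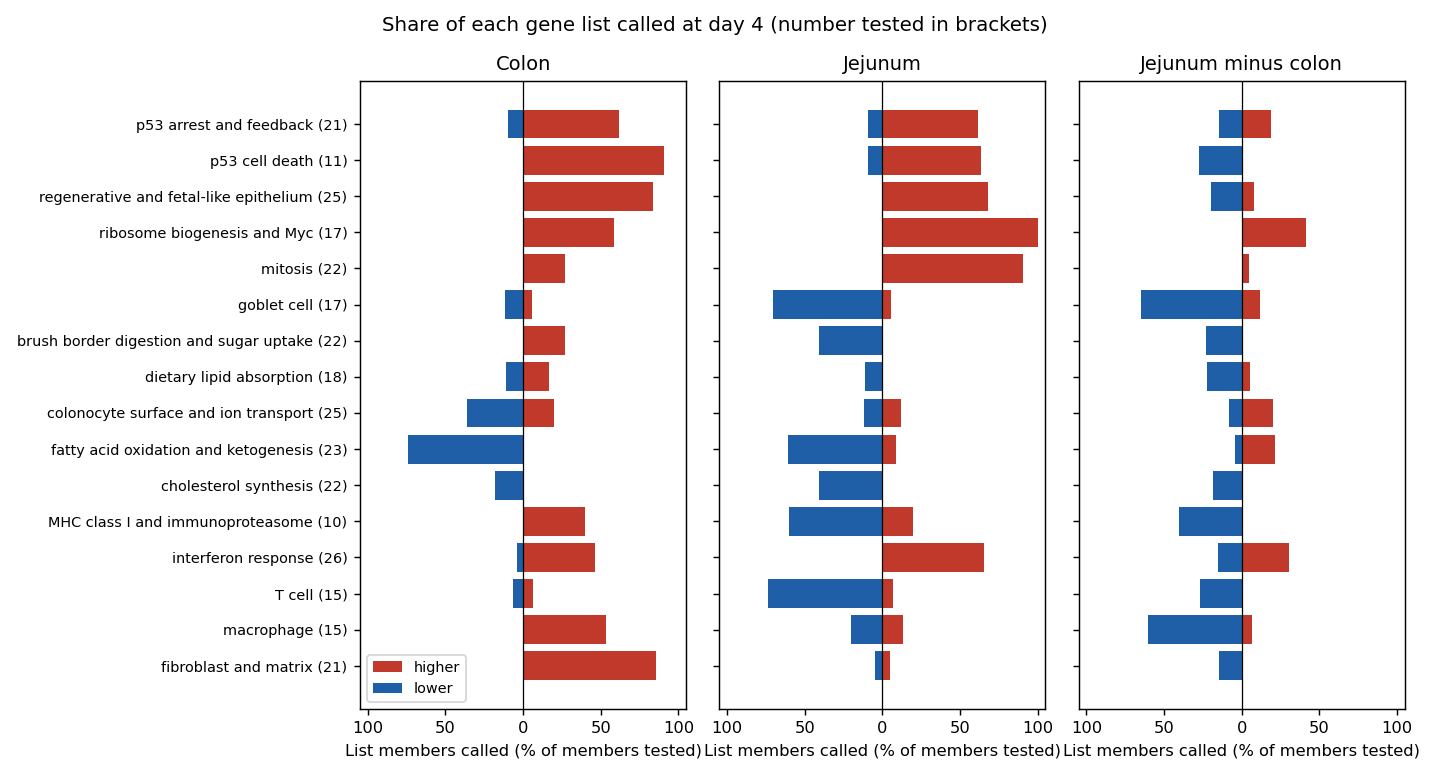
Share of the tested genes of each list (x axis, percent) that were called higher or lower after irradiation in colon, in jejunum and in the interaction. Goblet cell genes show 12 falls in jejunum and 2 in colon of 17 tested, and fibroblast and matrix genes 18 rises in colon and 1 in jejunum of 21.

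Some genes of digestion and absorption fell in jejunum, their normal site, and several rose in colon. Of 22 genes for brush border digestion and sugar uptake, 9 fell in jejunum and none rose, 6 rose in colon and none fell, and 5 were called lower in the interaction (background 8.22%). Dpp4, a peptidase of the brush border, rose by 0.86 ± 0.26 (adjusted p = 0.00661) in colon and fell in jejunum (-0.75 ± 0.26, adjusted p = 0.0127), an interaction of -1.62 ± 0.37 (adjusted p = 0.00077). Slc15a1, the peptide transporter, rose in colon from 0.385 ± 0.301 CPM to 11.6 ± 13.2 CPM and was 1841 ± 796 CPM and 2096 ± 1170 CPM in jejunum (interaction -4.19 ± 0.98, adjusted p = 0.00116). The Slc15a1 change in colon was 2.13 (adjusted p = 0.233) in series 1 and 5.95 in series 2, and its interaction -2.54 (adjusted p = 0.188) and -5.02. Lct, the milk sugar enzyme, fell in jejunum from 4767 ± 516 CPM to 1268 ± 1350 CPM and was under 1 CPM in colon, so no difference between tissues was read for it.

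Among 18 genes of dietary lipid absorption, 4 were called lower and 1 higher (background 8.22% and 13.6%). Scarb1, the receptor for high-density lipoprotein and a lipid transporter of enterocytes, fell in jejunum alone. Jejunum ran from 779.6 to 1114 CPM (median 960.2) and then from 128 to 353 CPM (median 280.5), with no overlap, a fall of 3.67-fold. Colon ran from 23.6 to 34.8 CPM (median 28) and from 27.3 to 38.6 CPM (median 33.6). The interaction was -2.09 ± 0.29 (adjusted p = 1.37e-07), with -2.30 and -1.98 in the series. Npc1l1, the cholesterol importer, and Acsl5, an acyl-CoA synthetase, were called lower through a rise in colon, by 2.71 ± 0.54 (adjusted p = 5.62e-05) and 1.27 ± 0.21 (adjusted p = 3.45e-06), and measured -0.75 and -0.22 in jejunum, not called. The Npc1l1 interaction was -1.65 (adjusted p = 0.19) in series 1 and -5.18 in series 2. Fabp1, the liver-type fatty acid binding protein, was the member called higher, through a fall in colon of -3.14 ± 0.61 (adjusted p = 3.47e-05) from 1971 ± 499 CPM to 362 ± 307 CPM (interaction 2.85 ± 0.80, adjusted p = 0.00679, at 1.31 with adjusted p = 0.377 in series 1 and 4.10 in series 2).

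Some cholesterol synthesis genes fell in jejunum: of 22, 9 fell there and 4 in colon, against a background of 19.4% in each tissue, which the colonic share did not exceed. None rose, and 4 were called lower in the interaction (background 8.22%). Fdft1, which makes squalene, changed by -1.56 ± 0.27 (adjusted p = 2.62e-06) in jejunum and measured -0.44 ± 0.26 (adjusted p = 0.171) in colon (interaction -1.12 ± 0.37, adjusted p = 0.0221).

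Among bile acid genes the receptor fell in colon and its target hormone rose in jejunum. Nr1h4, the nuclear bile acid receptor FXR, ran from 196 to 287 CPM (median 219) in control and from 48.5 to 169 CPM (median 117) in irradiated colon, without overlap, a fall of 2.16-fold. Jejunum ran from 8.94 to 16.7 CPM (median 14) and from 7.17 to 32.7 CPM (median 18.6), with overlap. The interaction of 1.60 ± 0.32 (adjusted p = 0.000152) was 1.57 in series 1 and 1.63 in series 2. Abcc3, a basolateral exporter of bile acids, fell in colon (-0.81 ± 0.19, adjusted p = 0.000491) and measured 0.11 in jejunum (interaction 0.92 ± 0.27, adjusted p = 0.00866, not called without the series 1 controls). Fgf19, the hormone that FXR induces in ileum, appeared in irradiated jejunum. It had 1 count over the 6 jejunal controls and 3743 counts after irradiation, a ratio of 3570 (95% counting interval 641 to 141000). Its interaction was 6.97 (adjusted p = 0.247) in series 1 and 13.6 in series 2, while the jejunal rise was called in both. The irradiated libraries ran from 0.0711 to 90.3 CPM (median 46), while colon stayed from 0 to 0.998 CPM (median 0.24) and from 0 to 1.05 CPM (median 0.392). Of 10 bile acid genes, 4 were called higher and none lower in the interaction, 4 fell and 1 rose in colon, and 2 rose and 2 fell in jejunum.

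Fatty acid oxidation genes fell in both tissues, and a few of them differed between the tissues. Of 23 genes of fatty acid oxidation and ketogenesis, 17 fell in colon and 14 in jejunum, none rose in colon and 2 rose in jejunum, and 5 were called higher and 1 lower. Ppara, the nuclear receptor that drives these genes, ran from 9.48 to 14.6 CPM (median 12.8) in control and from 0.867 to 7.12 CPM (median 3.75) in irradiated colon, without overlap, and from 5.36 to 12.8 CPM (median 9.72) and from 6.41 to 14.8 CPM (median 12.4) in jejunum. Its interaction was 2.13 ± 0.46 (adjusted p = 0.000473), at 1.35 (adjusted p = 0.117) in series 1 and 3.04 in series 2. The Ppara change in colon was -1.25 (adjusted p = 0.0679) in series 1 and -2.52 in series 2. Cpt1a, the gate enzyme of mitochondrial import, rose in jejunum by 0.72 ± 0.17 (adjusted p = 0.000386) (interaction 1.02 ± 0.24, adjusted p = 0.00123). Acot1, an acyl-CoA thioesterase, rose there from 0.637 ± 0.602 CPM to 7.05 ± 8.47 CPM (interaction 4.28 ± 0.82, adjusted p = 7.37e-05). The Acot1 interaction was 8.14 in series 1 and 1.52 (adjusted p = 0.261) in series 2, a difference that was itself called (adjusted p = 0.00681), and its jejunal controls stood at 0 to 0.215 CPM and 1.05 to 1.26 CPM in the series. The ketone body enzyme gene Bdh1 went the other way, with -0.57 ± 0.14 (adjusted p = 0.000799) in jejunum and an interaction of -0.87 ± 0.20 (adjusted p = 0.00112). Of 17 nuclear genes of the respiratory chain, 12 fell in colon and all 17 in jejunum, with no called interaction at adjusted p under 0.05 by edgeR.

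Surface genes of the colonocyte were mixed, with 5 called higher and 2 lower of 25 (background 13.6% and 8.22%). Slc26a3, the chloride-bicarbonate exchanger, had an interaction of -0.61 ± 0.74 (adjusted p = 0.597). The sodium-bicarbonate cotransporter gene Slc4a4 fell in colon from 24.9 ± 5.81 CPM to 6.96 ± 2.4 CPM and was 21.4 ± 8.85 CPM and 15.9 ± 6.12 CPM in jejunum (interaction 1.45 ± 0.40, adjusted p = 0.00549, at 0.84 with adjusted p = 0.26 in series 1). Tspan8, a tetraspanin abundant in colon, rose in jejunum from 138 ± 26.8 CPM to 469 ± 240.2 CPM and was 1076 ± 95.6 CPM and 1065 ± 161 CPM in colon (interaction 1.77 ± 0.31, adjusted p = 1.51e-05). Cldn2, the pore-forming claudin of crypts, rose in both tissues and more in jejunum, from 20.6 ± 5.39 CPM to 341 ± 204 CPM (interaction 2.26 ± 0.58, adjusted p = 0.00332). Hnf4g, a transcription factor of enterocyte identity, rose in colon from 18.1 ± 1.32 CPM to 57.5 ± 21.3 CPM and was 347 ± 85.6 CPM and 220.2 ± 96.9 CPM in jejunum (interaction -2.30 ± 0.41, adjusted p = 2.55e-05). Summed over 10 colon markers, irradiated colon stood at 1103 to 10750 CPM against 18720 to 22880 CPM in its controls, and irradiated jejunum 388 to 739.6 CPM against 386.5 to 537.1 CPM.

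Over both series, the genes Mt2A and Mt1 of metallothioneins, small proteins that bind zinc and copper, rose in jejunum alone. Mt2A ran from 2.46 to 46.3 CPM (median 7.01) in control and from 17.6 to 196 CPM (median 152) in irradiated jejunum, and from 2.09 to 6.28 CPM (median 3.2) and from 1.41 to 6.06 CPM (median 1.73) in colon. Its jejunal groups overlapped through 1 high control, and the interaction was 3.94 ± 0.96 (adjusted p = 0.00185). Mt1 gave 3.93 ± 0.75 (adjusted p = 7.08e-05), from 0.401 ± 0.359 CPM to 2.63 ± 1.79 CPM in jejunum. The jejunal change in series 1 was 1.94 (adjusted p = 0.112) for Mt2A and 1.77 (adjusted p = 0.0527) for Mt1. In series 2 it was 4.82 and 3.91, both called. The Mt2A interaction was 3.58 (adjusted p = 0.0771) in series 1 and 4.05 in series 2, and that of Mt1 was called in both. Nqo1, the quinone reductase under the transcription factor NRF2, rose in jejunum from 6.23 ± 2.45 CPM to 27.5 ± 20.8 CPM and was 289 ± 168 CPM and 191 ± 84.8 CPM in colon (interaction 2.76 ± 0.74, adjusted p = 0.0049). Of 16 NRF2 target genes, 4 were called higher and 2 lower (background 13.6% and 8.22%).

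The immediate early gene Fos rose in colon from 47.3 ± 17.5 CPM to 127 ± 11.6 CPM. In jejunum it stood at 197 ± 157 CPM and 126 ± 57 CPM (interaction -2.03 ± 0.44, adjusted p = 0.000477, not called without the series 1 controls). Cry2, a repressor in the circadian clock, fell 3.11-fold in colon, from 34.1 to 62.2 CPM (median 43.4) to 7.77 to 28.8 CPM (median 12.7), without overlap. In jejunum it stood at 13.4 to 18.6 CPM (median 14.1) and 7.9 to 23.2 CPM (median 17.6), and the interaction was 1.77 ± 0.36 (adjusted p = 0.00019). The Cry2 interaction was 1.28 (adjusted p = 0.161) in series 1 and 2.13 in series 2, and its change in colon -1.21 (adjusted p = 0.0953) and -1.98. Of 17 clock genes, 1 was called higher and 2 lower (background 13.6% and 8.22%).

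Over both series, several genes that make and load the peptides of MHC class I fell in jejunum, and Psmb8 and Tap2 among them rose in colon. The immunoproteasome, a form of the proteasome with exchanged catalytic subunits encoded by Psmb8, Psmb9 and Psmb10, cuts proteins into such peptides, and the transporter made of Tap1 and Tap2 carries them into the endoplasmic reticulum. Interferons induce these genes through sites in their promoters. Of 10 tested genes, 6 fell and 2 rose in jejunum, 4 rose and none fell in colon, and 4 were called lower in the interaction (background 8.22%), none higher. The 4 were Psmb8, Psmb9, Psmb10 and Tap2. Their promoters are shown because the members moved together, with each match to the core of the interferon-stimulated response element, GAAA, 2 bases of any kind and GAAA again on either strand, in capitals. RefSeq gives these windows of 300 bases, 250 before and 50 after the gene start, on build GRCr8, 5′ to 3′ in the direction of the gene. They lie at chr20:4656982-4657281 (Psmb8, minus strand), chr20:4668750-4669049 (Psmb9, plus strand), chr19:50743243-50743542 (Psmb10, minus strand) and chr20:4652247-4652546 (Tap2, minus strand).

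Psmb8: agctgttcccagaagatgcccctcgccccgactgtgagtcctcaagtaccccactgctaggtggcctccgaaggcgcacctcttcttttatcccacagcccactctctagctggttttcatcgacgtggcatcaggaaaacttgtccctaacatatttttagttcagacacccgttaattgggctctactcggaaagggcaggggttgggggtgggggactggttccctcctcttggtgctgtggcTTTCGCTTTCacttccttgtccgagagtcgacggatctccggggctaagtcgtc
Psmb9: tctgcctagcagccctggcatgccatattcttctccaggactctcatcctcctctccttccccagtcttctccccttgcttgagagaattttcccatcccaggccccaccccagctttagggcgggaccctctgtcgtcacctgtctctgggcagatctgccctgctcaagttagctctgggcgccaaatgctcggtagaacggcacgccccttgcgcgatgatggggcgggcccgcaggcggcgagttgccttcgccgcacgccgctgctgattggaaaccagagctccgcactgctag
Psmb10: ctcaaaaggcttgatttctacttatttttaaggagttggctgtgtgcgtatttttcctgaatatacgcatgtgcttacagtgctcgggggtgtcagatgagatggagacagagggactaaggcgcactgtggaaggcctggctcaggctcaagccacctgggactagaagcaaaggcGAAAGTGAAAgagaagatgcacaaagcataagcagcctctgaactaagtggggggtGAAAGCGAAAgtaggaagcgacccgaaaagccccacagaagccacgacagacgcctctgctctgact
Tap2: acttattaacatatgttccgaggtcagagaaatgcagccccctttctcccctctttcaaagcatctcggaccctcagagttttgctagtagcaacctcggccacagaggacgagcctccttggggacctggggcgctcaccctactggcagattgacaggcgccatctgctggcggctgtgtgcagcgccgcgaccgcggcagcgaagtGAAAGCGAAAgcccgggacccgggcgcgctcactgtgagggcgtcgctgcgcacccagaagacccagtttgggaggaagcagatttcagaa

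Psmb8 and Tap2 hold 1 match each, Psmb8 on the opposite strand, Psmb10 holds 2 and Psmb9 none in this window. A match was found in 7 of the 9 list members with a promoter in the table, and in 1312 of 33469 rat promoters of the same length (3.92%). The matches describe letters in a window and were not tested for any function.

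Psmb8 ran from 266 to 689.8 CPM (median 365) in control and from 143 to 264 CPM (median 194) in irradiated jejunum, and no irradiated library reached a control. In colon it ran from 41.2 to 60.5 CPM (median 57.1) and from 48 to 111 CPM (median 89.8), with overlap. The changes were -1.06 ± 0.27 (adjusted p = 0.000917) in jejunum and 0.67 ± 0.27 (adjusted p = 0.0407) in colon, and the interaction was -1.73 ± 0.38 (adjusted p = 0.000535). Tap2 ran from 223 to 520.2 CPM (median 391.8) and from 116 to 250.1 CPM (median 179) in jejunum, with overlap, and from 41.6 to 57.5 CPM (median 50.03) and from 58.5 to 107 CPM (median 80.5) in colon, where no irradiated library lay as low as a control. Its changes were -1.06 ± 0.25 (adjusted p = 0.000391) and 0.71 ± 0.25 (adjusted p = 0.0195), and the interaction was -1.77 ± 0.35 (adjusted p = 0.00015).

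Over both series, both genes thus moved apart, jejunum down and colon up, and the remaining pair fell in jejunum alone. Psmb10 changed by -0.998 ± 0.24 (adjusted p = 0.000395) in jejunum (interaction -1.42 ± 0.33, adjusted p = 0.00118) and Psmb9 by -0.71 ± 0.22 (adjusted p = 0.00671) (interaction -1.14 ± 0.32, adjusted p = 0.00586). Within series 1 and series 2 the interaction was -1.54 and -1.87 for Psmb8, -0.96 and -2.50 for Tap2, -1.08 and -1.75 for Psmb10, and -0.39 and -1.81 for Psmb9. All 4 were negative in both series. No jejunal fall was called in series 1, at -0.73 for Psmb8, -0.45 for Tap2, -0.52 for Psmb10 and -0.11 for Psmb9. Each was called in series 2. The colonic rise of Psmb8 was called in neither series alone. Jejunal controls ran from 223 to 309 CPM in series 1 and 474.5 to 520 CPM in series 2 for Tap2. For Psmb9 they ran from 144 to 157 CPM and from 216 to 325 CPM. The controls of Psmb8 and Psmb10 were not called different between the series. For MHC class I and immunoproteasome genes, 1 was called lower in series 1 alone, 5 in series 2 alone and 6 without the series 1 controls of jejunum. Psme3, which encodes a nuclear activator of the ordinary proteasome, also moved in opposite directions, by 0.49 ± 0.12 (adjusted p = 0.00104) in colon and -1.07 ± 0.12 (adjusted p = 1.58e-10) in jejunum, and its interaction was -1.01 in series 1 and -2.17 in series 2, both called, with a called difference between series (adjusted p = 0.0328).

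**Figure D4:**
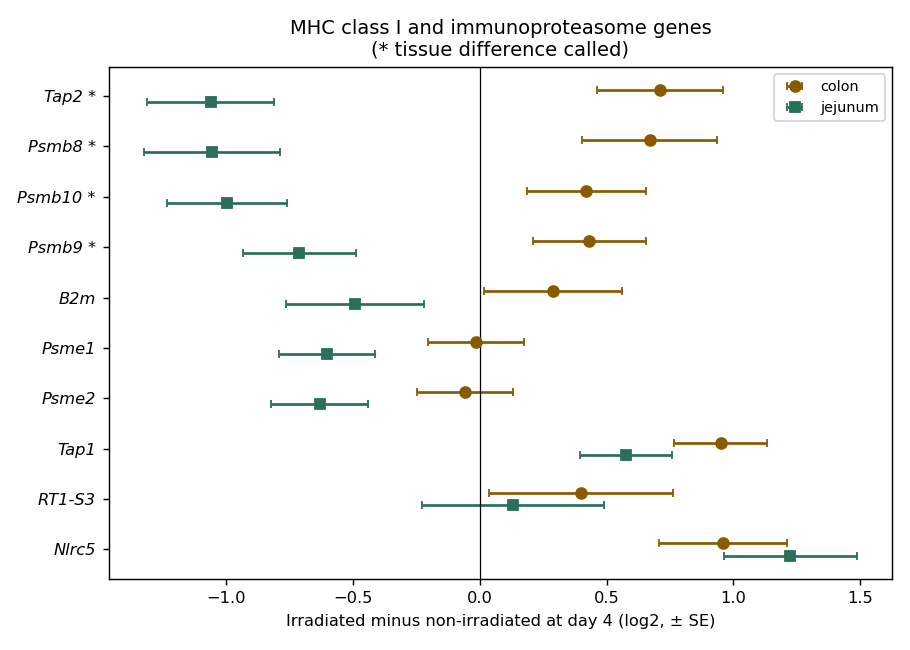
Change after irradiation in colon and in jejunum (log2, bars are SE) for the 10 tested genes of MHC class I and the immunoproteasome. Psmb8 and Tap2 lie above 0 in colon and below 0 in jejunum, while Tap1 and Nlrc5 lie above 0 in both.

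Interferon-induced genes did not share a direction. Of 26 genes of the interferon response, 17 rose in jejunum and none fell, 12 rose and 1 fell in colon, and 8 were called higher and 4 lower in the interaction. Usp18, a feedback inhibitor of type I interferon signalling, ran from 2.63 to 6.93 CPM (median 3.38) in control and from 4.55 to 28.5 CPM (median 23.3) in irradiated jejunum, and from 0.945 to 2.53 CPM (median 1.92) and from 1.22 to 2.23 CPM (median 1.43) in colon. Its interaction of 2.55 ± 0.57 (adjusted p = 0.000664) was 1.30 (adjusted p = 0.252) in series 1 and 3.62 (adjusted p = 0.00211) in series 2. Ifit1 and Mx1, antiviral effectors, rose in jejunum alone, with interactions of 2.20 ± 0.55 (adjusted p = 0.00258) and 1.72 ± 0.48 (adjusted p = 0.00629). For Mx1 the interaction was 0.35 (adjusted p = 0.71) in series 1 and 3.02 in series 2, and the jejunal change 0.43 (adjusted p = 0.423) and 2.78. The genes called lower rose in both tissues and more in colon: Cxcl11, a chemokine for T cells, by 2.97 against 1.62 (interaction -1.34 ± 0.43, adjusted p = 0.0183) and Gbp5, a guanylate-binding protein, by 4.66 against 2.54 (interaction -2.13 ± 0.69, adjusted p = 0.0198). Gbp5 measured -3.11 in series 1, -0.051 in series 2 and log2 0.0416 without the series 1 controls of jejunum. Cxcl10, a related chemokine, rose in both, by 4.27 ± 0.44 (adjusted p = 4.01e-12) and 4.56 ± 0.47 (adjusted p = 6.92e-12).

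T cell genes fell in jejunum: of 15 tested, 11 fell there and 1 rose, 1 rose and 1 fell in colon, and 4 were called lower in the interaction. Lck, the kinase of the T cell receptor, ran from 3.48 to 19.2 CPM (median 11.8) in control and from 0.996 to 5.42 CPM (median 2.15) in irradiated jejunum, and from 3.68 to 7.18 CPM (median 4.7) and from 4.15 to 6.7 CPM (median 4.64) in colon. The interaction was -2.25 ± 0.42 (adjusted p = 6.52e-05). The controls again parted by series, 17 to 19.2 CPM in series 1 and 3.48 to 6.67 CPM in series 2, and the interaction was -3.48 in series 1 and -0.62 (adjusted p = 0.411) in series 2. The test of that difference between series gave 2.93 (adjusted p = 0.00626). Cd3e and Cd8a gave -3.15 ± 0.87 (adjusted p = 0.0058) and -3.14 ± 0.88 (adjusted p = 0.00684), and neither these nor Lck were called without the series 1 controls. In series 2 alone Cd3e measured -0.50 and Cd8a -1.80, neither called. The list summed to 38.6 to 225.2 CPM in control and 70.6 to 139.5 CPM in irradiated jejunum, with 6 lower calls in series 1 alone and 0 in series 2 alone.

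Macrophage genes rose in colon, 8 of 15 with none falling, while 2 rose and 3 fell in jejunum, and 9 were called lower and 1 higher in the interaction. Mrc1, the mannose receptor, rose in colon from 0.548 ± 0.243 CPM to 2.49 ± 1.57 CPM (interaction -2.24 ± 0.54, adjusted p = 0.00157). Its colonic change was 1.07 (adjusted p = 0.175) in series 1 and 3.10 in series 2, and its interaction -1.67 (adjusted p = 0.0721) and -2.93. C1qa, a complement subunit, had an interaction of -2.77 ± 0.83 (adjusted p = 0.0109), but 0.36 in series 2 alone and 1.17 without the series 1 controls of jejunum, neither called. The macrophage list held 7 lower calls in series 1 and 2 in series 2, and its median moved from -2.24 to 0.42 without those controls.

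Most genes of neutrophils and inflammation rose in colon. Of 11 genes for neutrophils and their chemokines, 10 rose in colon, 4 rose and 1 fell in jejunum, and 1 was called lower in the interaction. That gene, Csf3r, the receptor of granulocyte colony-stimulating factor, went from 0.0917 ± 0.0835 CPM to 1.21 ± 0.918 CPM in colon and from 1.01 ± 0.7 CPM to 1.503 ± 1.69 CPM in jejunum (interaction -3.08 ± 1.01, adjusted p = 0.021). Of 20 inflammatory genes, 17 rose and 1 fell in colon and 13 rose in jejunum, with 2 lower calls. Il1b, the cytokine interleukin 1 beta, rose in colon from 1.13 ± 0.698 CPM to 5.57 ± 5.88 CPM and was 2.43 ± 2.09 CPM and 1.85 ± 1.9 CPM in jejunum (interaction -2.60 ± 0.82, adjusted p = 0.0163). Its call was lost without replicate 6 of irradiated colon, without replicate 2 of control jejunum, and without the series 1 controls.

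Mast cell genes fell in colon, where they started higher. Of 7 tested, 6 fell in colon and 3 in jejunum, and 3 were called higher and 1 lower in the interaction. Cpa3, the mast cell carboxypeptidase, went from 333 counts to 1 in colon, a ratio of 357 (95% counting interval 63.6 to 14100), and from 49 counts to 0 in jejunum, at least 17.1-fold lower. The jejunal fall of Cpa3 rests on series 1, whose controls ran from 0.369 to 1.72 CPM, while those of series 2 all stood at 0 CPM. Gata2, a transcription factor of mast cells and their progenitors, fell in colon from 2.88 ± 0.806 CPM to 0.163 ± 0.107 CPM and was 0.107 ± 0.141 CPM and 0.143 ± 0.132 CPM in jejunum (interaction 4.39 ± 1.06, adjusted p = 0.00166). Summed over 11 genes, mast cell markers were 24.3 to 28.7 CPM in control and 3.89 to 11.9 CPM in irradiated colon, against 3.77 to 11.5 and 1.43 to 5.42 CPM in jejunum.

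Of 21 fibroblast and matrix genes, 18 rose in colon and none fell, while 1 rose and 1 fell in jejunum, and 3 were called lower in the interaction. Fn1, encoding fibronectin, went from 0.281 ± 0.147 CPM to 3 ± 2.29 CPM in colon and was 0.802 ± 0.875 CPM and 0.835 ± 0.472 CPM in jejunum (interaction -3.54 ± 1.12, adjusted p = 0.0163), a call lost without replicate 2 of control jejunum or without all its series 1 controls. The fibroblast and matrix list had a median of -2.54, and 0.89 without those controls. Myh11, the smooth muscle myosin, rose in jejunum from 0.839 ± 0.421 CPM to 3.93 ± 2.11 CPM and was 9.38 ± 1.59 CPM and 9.41 ± 3.21 CPM in colon (interaction 2.12 ± 0.61, adjusted p = 0.00821, at 1.25 with adjusted p = 0.307 in series 1). Non-epithelial markers therefore moved beside the epithelial genes: fibroblast and matrix genes summed to 51.6 to 88.1 CPM in control and 203 to 618 CPM in irradiated colon, neutrophil genes to 1.98 to 3.08 and 13.2 to 318 CPM, and macrophage genes to 122.3 to 226.0 and 249.6 to 443.6 CPM. Epithelial identity genes summed to 17410 to 21020 and 17110 to 25350 CPM in the same groups. In jejunum the fibroblast and matrix sum was higher after irradiation too, with overlap. It was 6.58 to 65.4 CPM (median 20.5) in control and 31.1 to 122.2 CPM (median 64.4) in irradiated jejunum. Neutrophil genes summed there to 3.56 to 15.6 and 5.12 to 27.6 CPM, and macrophage genes to 110.8 to 392.7 and 157.6 to 206.0 CPM. The part of such cells in the differences above was not tested.

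A smaller group of genes moved in opposite directions, 190 up in jejunum and down in colon and 107 down in jejunum and up in colon. Rac2, a GTPase of blood cells, ran from 16.6 to 31.6 CPM (median 20.7) in control and from 41.4 to 121 CPM (median 62.5) in irradiated colon, and from 14.1 to 25.3 CPM (median 18.8) and from 6.12 to 10.2 CPM (median 7.72) in jejunum. The groups did not overlap in either tissue, and the changes were 1.63 ± 0.23 (adjusted p = 3.9e-08) and -1.30 ± 0.23 (adjusted p = 4.65e-06). Its interaction was -2.93 ± 0.32 (adjusted p = 1.72e-10), -2.90 in series 1 and -3.03 in series 2. Pmm1, a phosphomannomutase that feeds mannose into glycosylation, went the other way. It ran from 27.8 to 44.7 CPM (median 32.5) and then from 85.6 to 172 CPM (median 128) in jejunum, and from 99.95 to 142 CPM (median 116) and then from 59.5 to 99.9 CPM (median 85.6) in colon, again with no overlap in either tissue. It rose 3.92-fold in jejunum and fell 1.42-fold in colon (interaction 2.48 ± 0.22, adjusted p = 7.26e-14).

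Stbd1, a protein that tethers glycogen to membranes, fell in colon from 16.5 to 28.6 CPM (median 23.3) to 2.4 to 8.76 CPM (median 4.97) and rose in jejunum from 0.568 to 1.84 CPM (median 1.05) to 2.42 to 7.36 CPM (median 4.03). The tissues thus ended at overlapping levels after starting far apart, and the interaction was 4.28 ± 0.39 (adjusted p = 3.46e-13). Among further genes of this direction, Ptprd, a receptor phosphatase, had an interaction of 2.16 ± 0.21 (adjusted p = 1.38e-12), Ociad2 of 1.51 ± 0.15 (adjusted p = 5.63e-12), Impa2, an inositol monophosphatase, of 2.00 ± 0.22 (adjusted p = 1.69e-10), and Thumpd3 of 1.49 ± 0.16 (adjusted p = 9.41e-11). In the opposite direction Gpr37l1, a G protein-coupled receptor, had -3.72 ± 0.40 (adjusted p = 8.18e-11), Cxadrl1 -1.47 ± 0.17 (adjusted p = 4.41e-10) and Unc5cl, an inducer of NF-kappa-B, -2.83 ± 0.34 (adjusted p = 2e-09).

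**Figure D5:**
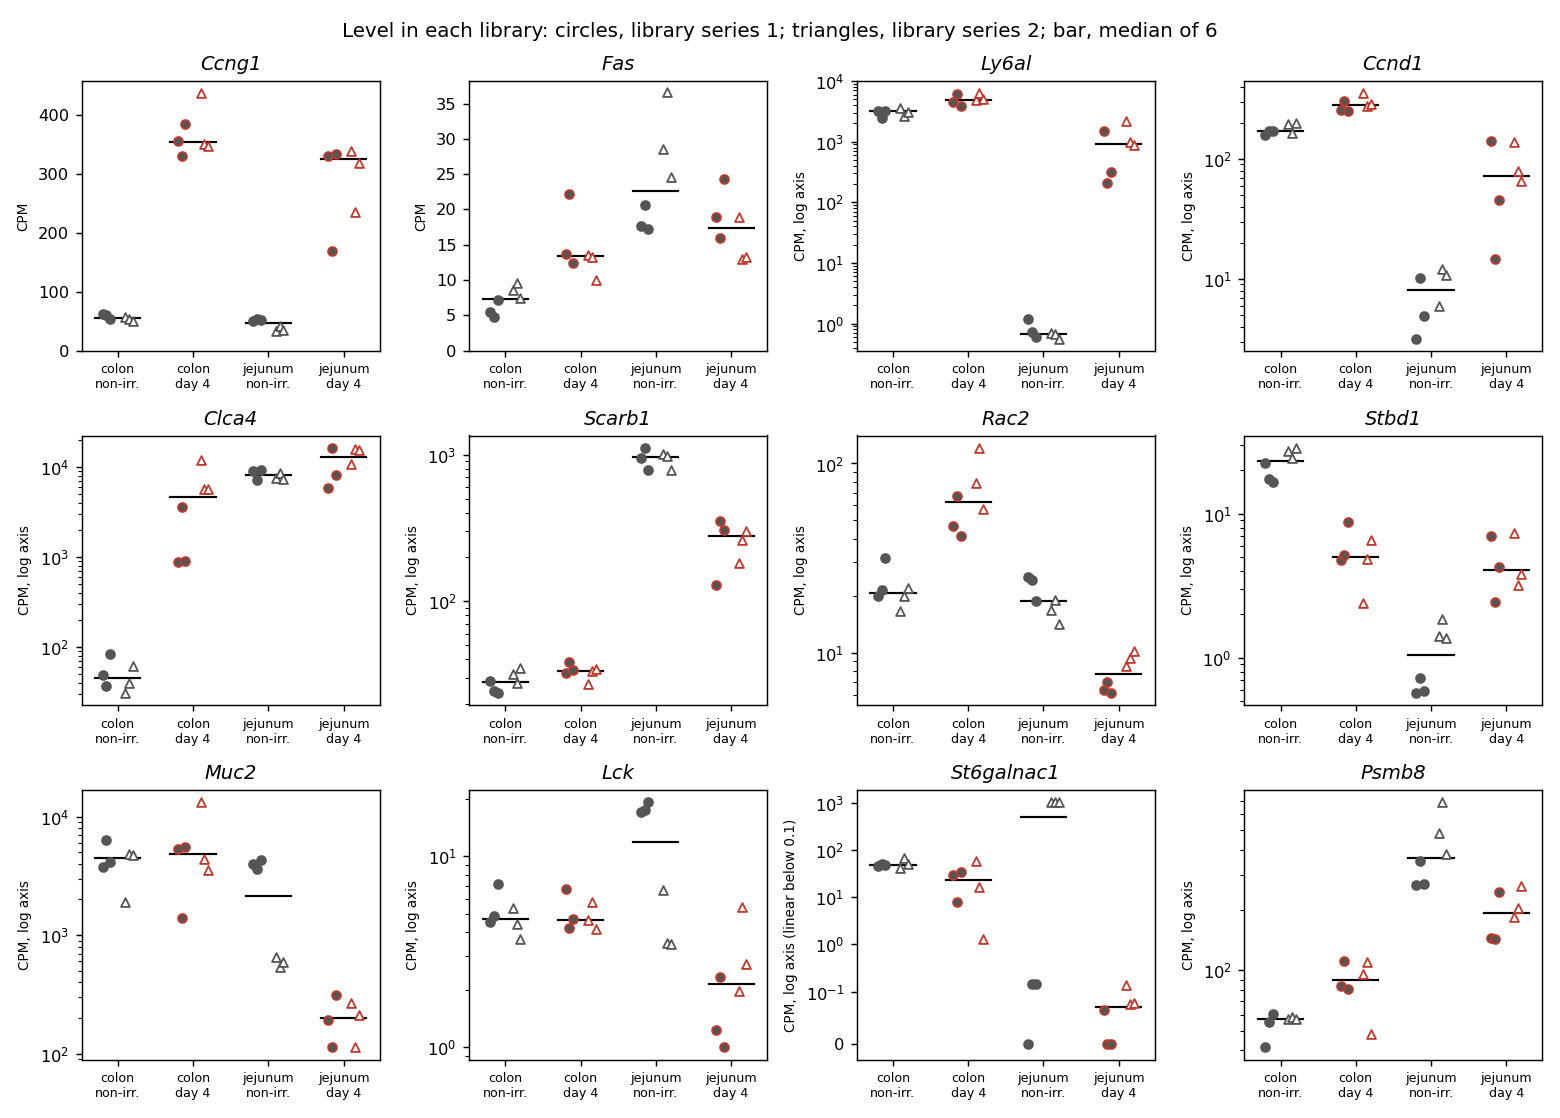
Level of 12 genes in each of the 24 libraries (CPM, on a log axis except for Ccng1 and Fas) by group, with circles for series 1, triangles for series 2 and a bar at the median. Rac2 and Stbd1 show opposite shifts in the 2 tissues without overlap, and Muc2 shows jejunal controls that part by series.

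Among genes measured in both tissues at a mean of 5 CPM or more, several with the highest interaction values were genes of normal colon that rose in jejunum. Abo, a blood group glycosyltransferase, had 1 count over the jejunal controls and 119 after irradiation, a ratio of 114 (95% counting interval 20.0 to 4520), and 54.9 ± 7.48 CPM and 40.03 ± 10.9 CPM in colon. Clic6, a chloride channel protein, had 0 counts in jejunal controls and 5.46 ± 3.8 CPM after irradiation, at least 149-fold higher, and rose in colon as well from 1.26 ± 0.642 CPM to 13.4 ± 6.29 CPM. Its colon control mean thus lay below its irradiated jejunum mean, and its interaction was called in neither series alone (adjusted p = 0.0903 and 0.0864). Il17re, a receptor subunit for interleukin 17C, rose in jejunum from 0.669 ± 0.356 CPM to 14.5 ± 10.0 CPM and was 44.8 ± 6.36 CPM and 45.3 ± 4.42 CPM in colon (interaction 4.46 ± 0.54, adjusted p = 3.19e-09). Acsbg1, an acyl-CoA synthetase, gave 4.67 ± 1.00 (adjusted p = 0.000398) and Slc5a8, a transporter of short-chain fatty acids, 4.81 ± 1.48 (adjusted p = 0.0135), each with a colon control mean above its irradiated jejunum mean. Slc5a8 lost its call without replicate 4 of irradiated jejunum (adjusted p = 0.0543) and was called in neither series alone (adjusted p = 0.0644 and 0.174). Lgals5, a rat galectin, rose in jejunum by 4.18 ± 0.64 (adjusted p = 2.95e-07) and fell in colon (-1.81 ± 0.60, adjusted p = 0.014). Its colon control mean of 2.78 CPM also lay below its irradiated jejunum mean of 16.8 CPM.

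Gkn3, a gastrokine, had a high interaction through colon, and Aldh1a1, a retinaldehyde dehydrogenase, through opposite changes in both tissues. Gkn3 fell there 23.2-fold, from 7.24 to 24.5 CPM (median 15.1) to 0.228 to 1.15 CPM (median 0.614) without overlap, and was 0.639 to 3.65 CPM (median 1.22) and 1.21 to 2.37 CPM (median 1.73) in jejunum (interaction 4.62 ± 0.51, adjusted p = 1.87e-10). Aldh1a1 fell in colon from 365 to 1619 CPM (median 792) to 25.9 to 471 CPM (median 229), with overlap, and rose in jejunum from 10.4 to 44.1 CPM (median 21.1) to 65.9 to 245 CPM (median 108), without overlap (interaction 4.81 ± 0.80, adjusted p = 6.4e-06). By series, the Aldh1a1 change in colon was -0.43 (adjusted p = 0.773) in series 1 and -4.08 in series 2, and in jejunum 3.82 and 1.37. Tex49 fell in colon from 63.1 ± 5.42 CPM to 9.07 ± 5.87 CPM and rose in jejunum by 1.90 ± 0.53 (adjusted p = 0.0023) on the log2 scale (interaction 4.86 ± 0.66, adjusted p = 1.05e-07).

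Among the lowest interactions were genes of normal jejunum that rose in colon. Clca4, a protein of the calcium-activated chloride channel regulator family, ran from 30.8 to 84 CPM (median 44.8) in control and from 894 to 12174 CPM (median 4675) in irradiated colon, without overlap, a rise of 76.7-fold. Jejunum ran from 7176 to 9359 CPM (median 8148) and from 5940 to 16534 CPM (median 13160), with overlap, and the interaction was -5.72 ± 0.67 (adjusted p = 1.24e-09). Col17a1, a collagen of epithelial anchoring, rose in colon from 0 to 0.293 CPM (median 0.0991) to 1.64 to 5.34 CPM (median 2.18) and fell in jejunum from 65.1 to 93.6 CPM (median 83.1) to 4.22 to 33.7 CPM (median 6.88), without overlap in either tissue (interaction -7.23 ± 0.86, adjusted p = 1.79e-09). Tgm2, tissue transglutaminase, did likewise, with 1.92 ± 0.6251 CPM and 60.2 ± 50.2 CPM in colon and 174 ± 40.7 CPM and 73 ± 34.2 CPM in jejunum (interaction -6.07 ± 0.81, adjusted p = 5.04e-08). Ceacam1, an adhesion molecule, rose in colon from 22.7 ± 3.7 CPM to 204 ± 175 CPM and was 632 ± 117 CPM and 622 ± 112 CPM in jejunum (interaction -3.003 ± 0.60, adjusted p = 0.000134). Atg9b, an autophagy membrane protein, had 2 counts in colon controls and 1908 after irradiation, a ratio of 890.0 (95% counting interval 246 to 7350), and rose in jejunum by 3.03 ± 0.65 (adjusted p = 0.000116). The Atg9b interaction was -4.37 (adjusted p = 0.127) in series 1 and -8.82 in series 2.

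Genes under 1 CPM in both groups of a tissue were also counted apart, and no difference between tissues is read for those named in this paragraph. List members were described above at any level. Among them Fgf19, Ifit1, Mt1, Cd3e, Cd8a and Btc had means under 1 CPM in both colon groups, and Fn1 and Gata2 in both jejunum groups. Their interactions rest on low counts in that tissue. The list counts hold such genes too: 2 of 7 mast cell and 10 of 21 fibroblast and matrix genes reached 1 CPM in both tissues. Genes under 1 CPM in colon that reached 1 CPM in jejunum numbered 528, of which 163 rose and 156 fell in jejunum. Genes under 1 CPM in jejunum that reached it in colon numbered 1046, of which 269 rose and 216 fell in colon. These counts cover only genes kept by their level in the tissue where the change is read. Seen in jejunum, Rhcg, an ammonia transporter, was at least 88.1-fold higher after irradiation against 0 counts in its controls, Vxn at least 111-fold, Nmnat2 at least 62.7-fold and Lipf, gastric lipase, at least 54.4-fold. Slc22a7, Slit1, Slc37a2, Slc17a2 and Maob fell there, Slc37a2 for example from 351 ± 114 CPM to 39.7 ± 55.2 CPM. Seen in colon, the neutrophil chemokine gene Cxcl3 was at least 899-fold higher and the cytokine gene Il22 at least 65.3-fold, and Psapl1 at least 98.9-fold. Cxcl6 went from 1 count to 3836, a ratio of 3580 with a counting interval of 642 to 141000. Atp12a, the colonic proton pump, rose from 0.101 ± 0.0579 CPM to 589 ± 1346 CPM, a mean with a spread larger than itself. The mast cell receptor genes Fcer1a, at least 47.5-fold lower, and Ms4a2, with 388 counts before and 2 after irradiation, fell in colon, as did Tekt4 and Tal1.

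Another 12 libraries hold the same tissues of rats that were irradiated in the same way and given water by mouth, also on day 4. They were set beside the values above without a test, since the non-irradiated controls would be shared. Rac2 ran from 29.4 to 87.4 CPM (median 59.5) in colon and from 5.05 to 8.99 CPM (median 7.56) in jejunum. Pmm1 ran from 75.6 to 100.4 CPM (median 90.3) in colon and from 48.5 to 196 CPM (median 143) in jejunum. Ly6al ran from 4063 to 5813 CPM (median 5077) in colon and from 63.5 to 2351 CPM (median 593) in jejunum. For Rac2 the colon libraries lay above all those of jejunum, as in irradiated rats without water. Muc2 ran from 3335 to 5715 CPM (median 4508) in colon and from 336 to 1112 CPM (median 442) in jejunum. Psmb8 ran from 44 to 133 CPM (median 94.2) in colon and from 144 to 374 CPM (median 219) in jejunum. Scarb1 ran from 26.6 to 42.5 CPM (median 31.4) in colon and from 199 to 328 CPM (median 227) in jejunum. The jejunal Muc2 values lay above those of irradiated rats without water and partly within the range of the controls, while Psmb8 and Scarb1 overlapped the irradiated libraries without water in either tissue. Fas stood at 10.4 to 16.4 CPM (median 13.2) and 14.4 to 19.4 CPM (median 16.2) in these libraries, and Fgf19 in jejunum at 1.6 to 109 CPM (median 19). St6galnac1 was again near 0 in all 6 jejunum libraries, with a highest value of 0.178 CPM.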

How the data were processed

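RNA of colon and jejunum epithelium was sequenced as paired 150-base reads on a DNBSEQ-G400, per the labels' protocols. The deposited values are raw counts per gene symbol for 21837 genes, and the authors' alignment used STAR 2.7.10a and build mRatBN7.2, per the submitters' processing notes. For the read counter, the annotation release and strandedness, the setting is not given in the sources used here, so reads of overlapping or antisense genes cannot be told apart.

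The interaction and the changes within each tissue were tested with edgeR 4.0.16 (R 4.3.3) by its quasi-likelihood F test on the counts, with TMM factors and filterByExpr by group. The fit held 84 libraries, the 14 groups of the same count table, which share the estimate of spread, with a term for library series within each tissue. Adjusted p-values are Benjamini-Hochberg over 13741 genes, SE is the log2 value over the square root of F, and CPM come from TMM-scaled library sizes. With 17.73 to 19.74 M counts per library, counting error limits genes of a few counts. Lower bounds of folds use 3 counts over the group, and 95% intervals of count ratios cover counting error only. Alternatives were RLE factors, DESeq2 1.42.0, other filters, the 24 libraries alone, no series term, each series alone, the mitochondrial share as covariate or its genes left out, the replicate block and each library left out. The procedure was tested on simulated counts.

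Named genes are the 10 highest and 10 lowest called interactions with a mean of at least 5 CPM, 6 genes per direction among those with opposite changes, up to 6 genes of each list with the smallest interaction p, a panel of 15 genes, the 4 with the clearest shared change, and the 5 largest per side among genes under 1 CPM in a tissue. Not all of them are described, and 1 is not reported here. The members and lists were chosen with earlier results of these data known. The 45 lists hold 783 symbols, of which 747 were in the table (3 under another name: Muc2 as AABR07006030.1, Muc5ac as AABR07006032.1 and Car4 as Ca4), 36 are not analysed here and 688 passed the filter. Leaving out replicates 1 and 2 of irradiated jejunum, or the series 1 controls of jejunum, was chosen after seeing the data.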

Additional observations from a re-analysis of the deposited data

Results flagged for a closer look

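Of the 29 genes described library by library, each in 4 groups of 6 libraries, 18 of 116 groups held a library far from its group, by Dixon's test at the 95% level, which chance alone meets in about 1 in 20 groups. In colon controls these were Pla2g2a in replicate 3 (25.4 CPM), Nr1h4 in replicate 4 (286.8 CPM), Psmb8 in replicate 1 (41.24 CPM, low), Rac2 in replicate 3 (31.56 CPM), Fgf19 in replicate 6 (0.9984 CPM) and St6galnac1 in replicate 5 (68.38 CPM). In irradiated colon they were Fas in replicate 2 (22.24 CPM), Anxa1 in replicate 6 (662.5 CPM), Cry2 in replicate 3 (28.83 CPM), and Muc2 (13230 CPM), Olfm4 (28.79 CPM) and Col17a1 (5.336 CPM) in replicate 4. In jejunum controls they were Ly6al in replicate 1 (1.206 CPM), Pla2g2a in replicate 2 (28.65 CPM), and Cry2 (18.59 CPM), Mt2A (46.33 CPM) and Fgf19 (0.07377 CPM) in replicate 3, and in irradiated jejunum Lif in replicate 6 (11.61 CPM, low). Each of these genes kept its call, or its lack of one, when any single library was left out.

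The tissues differed by the edgeR interaction test in 27 of the 29. The jejunal change was the higher one, in log2, for Fgf19 (10.5), Ly6al (9.56), Aldh1a1 (4.81), Gkn3 (4.62), Stbd1 (4.28), Mt2A (3.94), Ccnd1 (2.67), Usp18 (2.55), Pmm1 (2.48), Ppara (2.13), Cry2 (1.77) and Nr1h4 (1.60). It was the lower one for Zmat3 (-0.914), Lif (-1.26), Fas (-1.45), Psmb8 (-1.73), Tap2 (-1.77), Scarb1 (-2.09), Lck (-2.25), Rac2 (-2.93), Muc2 (-3.73), Pla2g2a (-4.76), Olfm4 (-5.23), Anxa1 (-5.33), Clca4 (-5.72), Col17a1 (-7.23) and St6galnac1 (-11.3). For Lck the interaction itself differed between the library series, by 2.93. Fgf19 had a mean under 1 CPM in both colon groups.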

How the results depend on the processing

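The count of 2994 genes with different responses was 1978 (57.9% of them higher) with only the 24 libraries in the fit, 1605 with library series 1 alone and 1990 with series 2 alone, and all its alternatives with 84 libraries gave 2259 to 3184. Within colon and jejunum series 1 alone gave 857 and 3869. Leaving out single libraries gave 2383 to 3509 for the interaction, the lowest without replicate 1 and the highest without replicate 2 of irradiated jejunum, 4009 to 5365 for colon and 5414 to 6768 for jejunum. Whether library numbers pair the samples was not settled: of 12 pairs of a colon and a jejunum library with the same number, 7 correlated above 0.1 (range -0.278 to 0.293) and 9 correlated best with their own number. The replicate block gave 2626 genes with 84 libraries, and 1789 with 24, of which 52.2% were higher against 62.3% in the reported fit. Signs turned for C1qa with series 2 alone (0.36), and without the series 1 controls of jejunum for C1qa (1.17), C1qc (1.11), Gbp5 (0.0416), Jchain (0.50) and Mmp2 (0.81). Kit turned with both (0.12 and 0.062). None of these was called there. The causes were not tested. Leaving out those controls also ended, without a turn of sign, the calls of 18 named genes. Among them were Anxa1, Tff3, Fcgbp, Pyy, Apaf1, Plk2, Abcc3, Fos, Lck, Cd3e, Cd8a, Btc, St6gal1, Il1b, Fn1 and Rrp12. With only the 24 libraries in the fit 7 named genes lost their call. The replicate block ended 7 calls with 84 libraries and 10 with 24. Single libraries ended those of Gbp5 (without replicate 3 of control jejunum), Cxcl11 and Slit1 (replicate 4 of irradiated colon), Slc17a2 (replicate 6 of irradiated colon), Nmnat2 (replicate 1 of control colon) and Fcer1a (replicate 3 of irradiated jejunum), beside those of Fn1, Il1b, Rrp12 and Slc5a8 given in the results.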

Other observations

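Gene groups not described above differed little between the tissues in called genes. B and plasma cell genes fell in both tissues, 10 of 13 in colon and 5 in jejunum, with 1 rise in colon and 2 in jejunum, and the interaction was called higher in 1 and lower in 1. MHC class II genes rose in 3 of 10 cases in jejunum and none changed in colon, with 2 higher interactions. Of 26 genes of DNA replication, 22 rose and 1 fell in jejunum, 11 rose in colon and 1 interaction was called, higher. Of 20 crypt stem cell and Wnt target genes, 15 rose and 1 fell in jejunum, 11 rose and 2 fell in colon, and 3 interactions were higher and 1 lower. Genes of the ER stress and integrated stress response rose in both, 10 of 17 in colon and 11 in jejunum, where 2 fell, and 1 interaction was higher and 2 lower. Immediate early genes rose in 11 of 18 cases in colon and 9 in jejunum, with 2 lower interactions. Gastric-type genes, which normal intestine expresses little, rose in 6 of 12 cases in jejunum and 2 in colon, where 1 fell, and 1 interaction was higher. The mitochondrially encoded genes, 13 in all, were called in neither tissue and in no interaction, but 7 were called higher in series 1 alone and 2 lower in series 2 alone. None of 12 endothelial and none of 8 enteric neuron and glia genes had a called interaction by edgeR.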
